A study of Mus musculus with 5 samples.

Results

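A set of 37 pancreatic acinar genes, made up of digestive enzymes, zymogen granule proteins and acinar transcription factors, was followed in embryonic mouse cortical cells that had been made to express Ptf1a. They were chosen by name, and each of the 37 symbols matched a row of the authors' deposited table of 23234 genes. RNA was sequenced from GFP-positive cells sorted from the cortex of CD1 mouse embryos electroporated at E12.5 and harvested at E15.5, where E counts embryonic days; the labels call them pyramidal cells. The Ptf1a misexpression group (3 samples) carried a construct with Ptf1a and GFP, and the GFP-only control group (2 samples) carried a GFP construct. Each sample was pooled from 3 to 6 brains, and the sex of the embryos and the promoter that drove the constructs were not given in the sources used here. The table gives 1 value per gene and group in FPKM, fragment counts normalised for transcript length and library size, merged by the authors over the samples of a group. No value per sample was analysed, so no spread between samples and no depth per sample stands behind any value here.

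The acinar cell of the pancreas makes digestive enzymes, most of them as inactive precursors called zymogens, packs them into granules and secretes them towards the gut. Ptf1a is a basic helix-loop-helix factor needed to form the pancreas and to keep acinar cells in their state. It binds DNA in the PTF1 complex with an E protein such as Tcf3, Tcf4 or Tcf12 and with Rbpj or, in mature acinar cells, Rbpjl. The complex recognises an E-box next to a TC-box, the site of the Rbpj proteins, in the promoters of many enzyme genes. In the nervous system Ptf1a instead specifies inhibitory neurons, for example in the spinal cord, retina and cerebellum.

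Transcripts of many acinar enzymes and granule proteins stood far higher in Ptf1a misexpression than in the GFP-only control, while the acinar transcription factors stayed near 0 in both groups. The 37 genes summed to 127 FPKM in Ptf1a misexpression and to 5.62 FPKM in the GFP-only control. In Ptf1a misexpression 17 of them (45.9%) reached 1 FPKM, and in the GFP-only control 2 did (5.41%). Of all rows 44.1% reached it in Ptf1a misexpression and 42.0% in the GFP-only control. The words rose and fell are kept for genes with a q-value under 0.05 in the authors' own test, made with Cuffdiff. By that rule 11 of the 37 genes (29.7%, untested genes included) rose and 0 fell. Of all 23234 rows 2217 rose and 2263 fell, which are 18.7% and 19.1% of the 11876 tested genes. The 29.7% and the 18.7% thus have unlike bases and are not to be compared. At an unadjusted p under 0.05 in the authors' deposited table, 12 of the 37 genes were higher and 0 lower in Ptf1a misexpression. The authors tested 19 of the 37 genes, and 18 had no test, as did 48.9% of all rows. Of the tested genes, 14 stood under 0.2 FPKM in the GFP-only control and so came to a test through their level in Ptf1a misexpression, which makes the 11 of 19 no fair share to set against the whole table. The other 5 tested genes stood at 0.2 FPKM or more in the GFP-only control, and 2 of those 5 rose. The median log2 difference of all 37 genes, on the log2(FPKM + 0.1) scale as Ptf1a misexpression minus GFP-only control, was 1.50, beside 0.00 over all rows. That median was 0.32 with 1 FPKM added in place of 0.1. In merged values of sorted cells, a few cells with much of a transcript cannot be told apart from many cells with little of it.

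**Figure D1:**
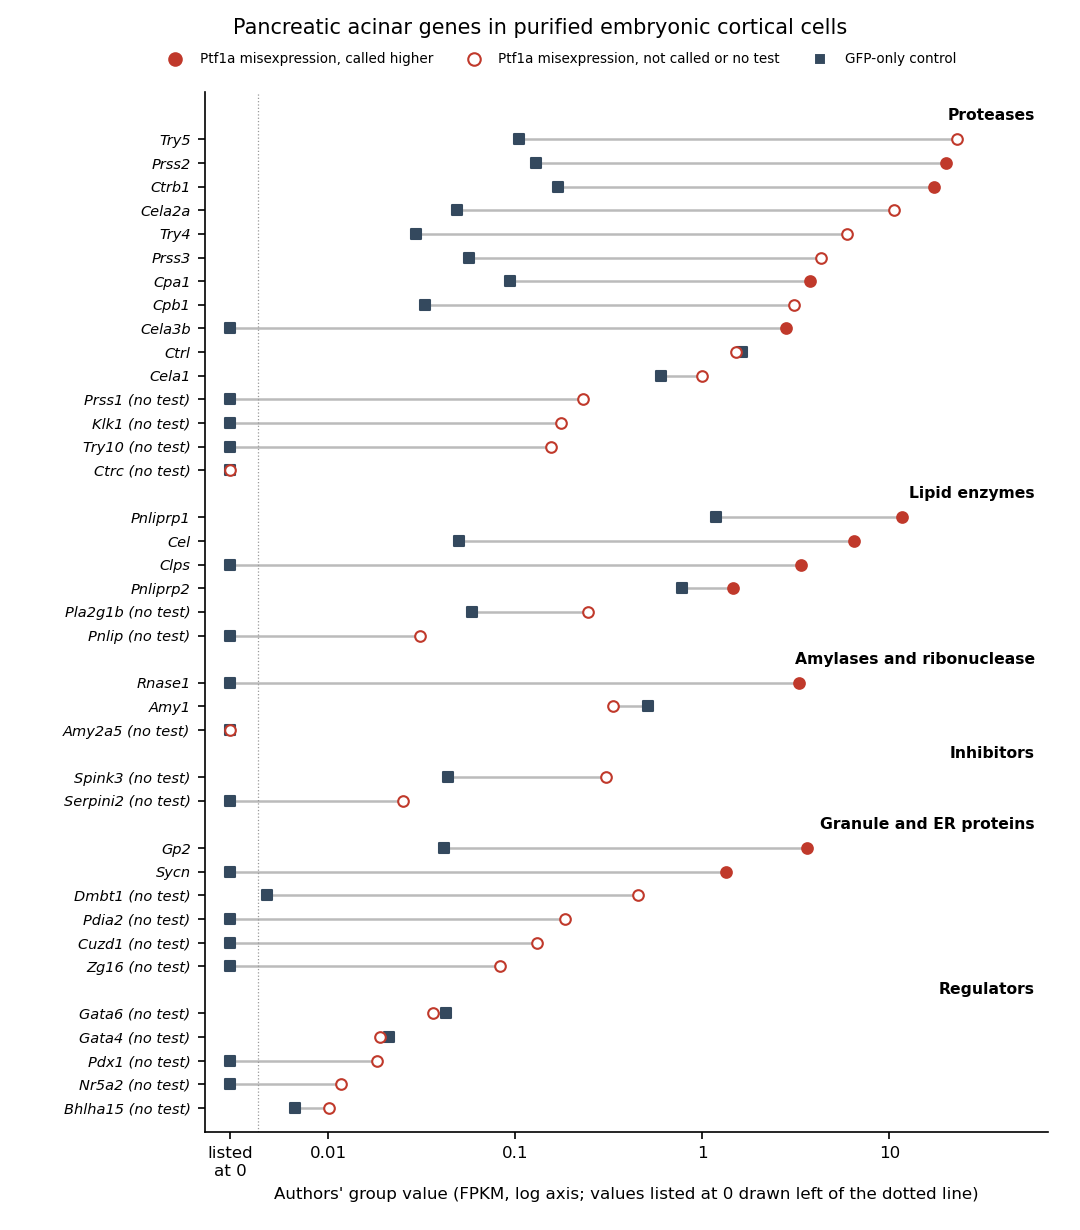
Levels of the 37 acinar genes by role, in FPKM on a log axis, as the authors' single value for Ptf1a misexpression (circles, filled where the gene rose) and for the GFP-only control (squares), with values listed at 0 drawn left of the dotted line. The circles of most enzymes lie well right of their squares, up to 23.0 FPKM for Try5, whereas both symbols of the 5 regulators lie under 0.05 FPKM.

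Ptf1a itself stood at 38.9 FPKM in Ptf1a misexpression and 0.210 FPKM in the GFP-only control and rose, a gap of 6.98 on the log2(FPKM + 0.1) scale. Fragments from the construct cannot be told from those of the cell's own gene.

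Proteases were the largest group, with 15 members, of which 4 rose, 0 fell, 7 were tested without a call and 4 had no test. Over all tested genes 18.7% rose and 19.1% fell. These shares stand beside the counts of each role below, but most tested members came to a test through their level in Ptf1a misexpression. Ctrb1, the precursor of chymotrypsin B (chromosome 8, 114210410 to 114214910, mm9), stood at 17.2 FPKM in Ptf1a misexpression and 0.170 FPKM in the GFP-only control. Its log2 fold in the authors' deposited table was 6.66 with q = 0.0110. Cpa1, which encodes carboxypeptidase A1, a zinc enzyme that trims amino acids from the carboxyl end of peptides (chromosome 6, 30589221 to 30595361, mm9), rose to 3.75 FPKM in Ptf1a misexpression, against 0.0931 FPKM in the GFP-only control. Its log2 fold in the authors' deposited table was 5.33 with q = 0.00578. Cela3b, an elastase precursor (chromosome 4, 136976923 to 136986435, mm9), rose to 2.79 FPKM in Ptf1a misexpression and was listed at 0 in the GFP-only control. About 19.2% of the 50-base stretches of its annotated transcripts also stand in another gene, Cela3a, and 50 bases was the read length.

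The other elastases differed from Cela3b in outcome. Cela2a stood at 10.6 FPKM in Ptf1a misexpression and 0.0487 FPKM in the GFP-only control, a gap as wide as that of the genes that rose, yet it was not called (q = 0.234 in the authors' deposited table). Its row overlaps that of Casp9, a caspase gene, and 15.6% of its 50-base stretches also stand in Ctrc. Cela1 stood at 0.996 FPKM in Ptf1a misexpression and 0.598 FPKM in the GFP-only control and was not called. Cpb1, which encodes carboxypeptidase B1 and removes basic residues, stood at 3.09 FPKM in Ptf1a misexpression and 0.0329 FPKM in the GFP-only control and was not called (q = 0.142 in the authors' deposited table). Ctrl, a chymotrypsin-like protease, was the member with the highest control level, at 1.51 FPKM in Ptf1a misexpression and 1.62 FPKM in the GFP-only control, without a call. Ctrc encodes chymotrypsin C, which regulates trypsin precursors. It was listed at 0 in both groups, its row overlaps that of 1810035I16Rik, and the later RefSeq annotation marks the mouse gene as a transcribed pseudogene. The tissue kallikrein gene Klk1 stood at 0.175 FPKM in Ptf1a misexpression and at 0 in the GFP-only control, without a test.

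Try5 and Prss2, both trypsin precursors, held the highest levels of the 37 genes in Ptf1a misexpression. The 6 trypsin members summed to 53.8 FPKM in Ptf1a misexpression, 42.4% of the sum over the 37 genes, and to 0.320 FPKM in the GFP-only control. Prss2 (chromosome 6, 41471775 to 41475078, mm9) rose to 20.2 FPKM in Ptf1a misexpression, against 0.129 FPKM in the GFP-only control, with q = 0.0283 and a log2 fold of 7.29 in the authors' deposited table. Try5 stood higher still, at 23.0 FPKM in Ptf1a misexpression and 0.105 FPKM in the GFP-only control, but missed the threshold with q = 0.0618 in the authors' deposited table. Try4 stood at 5.92 FPKM in Ptf1a misexpression and 0.0296 FPKM in the GFP-only control, and Prss3 at 4.30 FPKM in Ptf1a misexpression and 0.0562 FPKM in the GFP-only control. Neither Try4 nor Prss3 was called. Prss1 and Try10 reached 0.230 and 0.156 FPKM in Ptf1a misexpression and were listed at 0 in the GFP-only control, with no test for either.

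These 6 genes lie in a run of 12 gene rows that spans 560.3 kb of chromosome 6 (40914771 to 41475078, mm9). In Ptf1a misexpression 4 of the 12 rows reached 1 FPKM, and all 4 were members: Try4, Try5, Prss3 and Prss2. The neighbours Gm2663 and 2210010C04Rik stood at 0.402 and 0.405 FPKM in Ptf1a misexpression. Gm10334, another neighbour, rose to 0.695 FPKM in Ptf1a misexpression and was listed at 0 in the GFP-only control. The trypsin genes resemble each other so closely that their single values are uncertain. Of the 50-base stretches in the annotated transcript, 66.1% in Prss3, 65.6% in Try4, 54.9% in Prss1, 47.6% in Try5 and 40.8% in Try10 also stand in another gene. For Prss2 that share was 7.83%. How the authors' counting divided fragments among such copies was not given in the sources used here.

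**Figure D2:**
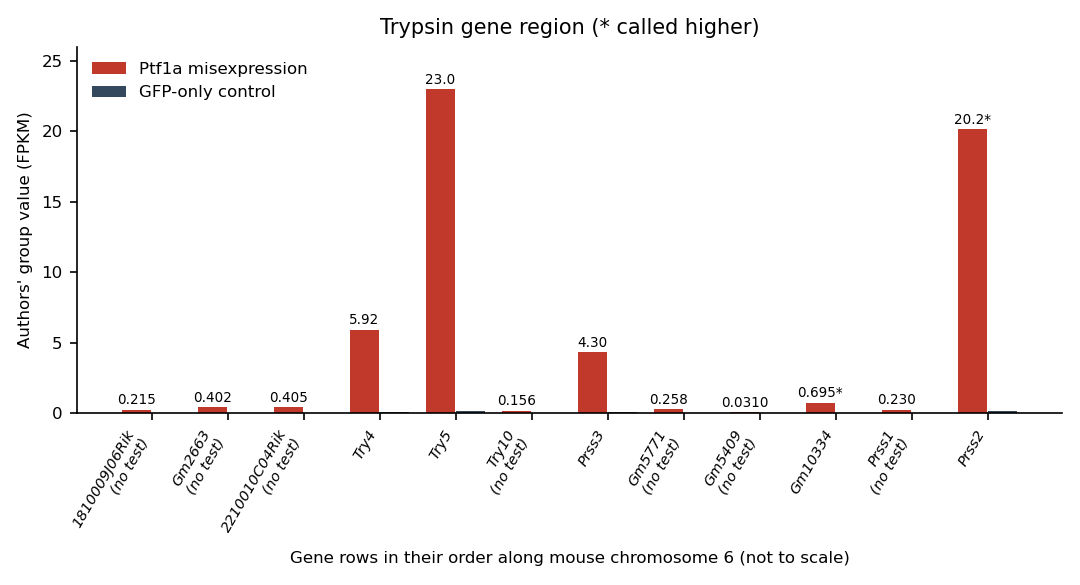
FPKM of the 12 gene rows of the trypsin region in their order along chromosome 6, with Ptf1a misexpression as the left bar and the GFP-only control as the right bar of each gene, and an asterisk where the gene rose. Try5 (23.0 FPKM) and Prss2 (20.2 FPKM) stand out in Ptf1a misexpression, followed by Try4 and Prss3, and no control bar exceeds 0.129 FPKM.

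Promoter windows of 4 proteases are printed because the PTF1 complex is known to bind enzyme promoters at paired sites and because neighbouring trypsin genes differed in level. Each window runs from 250 bases before to 50 bases after the annotated start, on the gene's own strand, from RefSeq on GRCm38.p6. Capitals mark each E-box, CANNTG, and each TC-box core, TTCCCA or, on the other strand, TGGGAA.
Ctrb1, chr8:111690961-111691260, minus strand: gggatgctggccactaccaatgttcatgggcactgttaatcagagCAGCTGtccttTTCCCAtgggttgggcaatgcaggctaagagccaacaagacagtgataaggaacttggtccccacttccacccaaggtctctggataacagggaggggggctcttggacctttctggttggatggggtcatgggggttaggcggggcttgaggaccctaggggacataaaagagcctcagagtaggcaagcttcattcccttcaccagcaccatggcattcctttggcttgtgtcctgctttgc
Cpa1, chr6:30638968-30639267, plus strand: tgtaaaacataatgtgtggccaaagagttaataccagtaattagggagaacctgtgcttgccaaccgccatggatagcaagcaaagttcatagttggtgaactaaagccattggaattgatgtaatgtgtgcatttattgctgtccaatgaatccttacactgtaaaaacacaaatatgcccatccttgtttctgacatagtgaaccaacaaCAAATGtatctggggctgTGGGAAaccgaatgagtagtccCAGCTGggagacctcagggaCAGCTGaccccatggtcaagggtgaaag
Prss2, chr6:41521526-41521825, plus strand: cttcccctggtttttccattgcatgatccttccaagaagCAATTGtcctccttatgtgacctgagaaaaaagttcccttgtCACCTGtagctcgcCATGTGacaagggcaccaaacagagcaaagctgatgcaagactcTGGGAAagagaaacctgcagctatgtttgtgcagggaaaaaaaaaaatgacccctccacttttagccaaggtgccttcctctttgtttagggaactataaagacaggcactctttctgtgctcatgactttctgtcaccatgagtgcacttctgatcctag
Prss1, chr6:41458680-41458979, plus strand: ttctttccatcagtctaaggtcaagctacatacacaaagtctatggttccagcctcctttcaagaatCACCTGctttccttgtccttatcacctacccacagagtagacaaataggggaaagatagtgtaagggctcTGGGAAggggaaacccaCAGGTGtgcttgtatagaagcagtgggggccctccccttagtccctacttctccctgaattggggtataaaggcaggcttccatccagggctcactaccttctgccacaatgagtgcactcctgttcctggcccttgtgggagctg
In the Ctrb1 window the E-box CAGCTG began 205 bases before the start and the TC-box core 194 bases before it, 11 bases apart, counted between first bases, as are the distances that follow. In Cpa1 a TC-box core 20 bases before the start lay between an E-box 38 bases before it and another just after it, 18 and 22 bases away. Prss2 held a TC-box core 111 bases before the start with no E-box within 40 bases, the limit used here for a pair. Prss1, at 0.230 FPKM in Ptf1a misexpression, held a TC-box core 113 bases before the start and an E-box 17 bases from it. By that limit a pair was present in Prss1 and absent from Prss2, which rose. The low level listed for Prss1 is uncertain, since 54.9% of its 50-base stretches also stand in another gene. Whether a pair bears on level was not tested.

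Enzymes of lipid digestion rose in 4 of 6 members, with 0 fallen and 2 untested, beside 18.7% risen over all tested genes. Cel and Clps stood under 0.2 FPKM in the GFP-only control and came to a test through their level in Ptf1a misexpression. Pnliprp1 (chromosome 19, 58803377 to 58818659, mm9) encodes a pancreatic lipase-related protein. It rose to 11.6 FPKM in Ptf1a misexpression, against 1.18 FPKM in the GFP-only control, with q = 0.000329 and a log2 fold of 3.29 in the authors' deposited table. Unlike most members, it was already above 1 FPKM in the GFP-only control. Cel, the bile salt-activated lipase (chromosome 2, 28411340 to 28418882, mm9), rose to 6.43 FPKM in Ptf1a misexpression, against 0.0499 FPKM in the GFP-only control, with q = 0.0330 and a log2 fold of 7.01 in the authors' deposited table. Clps encodes colipase, the small cofactor that anchors pancreatic lipase to fat droplets. It rose to 3.35 FPKM in Ptf1a misexpression and was listed at 0 in the GFP-only control.

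The lipase that colipase serves was near 0 in both groups. Pnlip, the main pancreatic triglyceride lipase, stood at 0.0309 FPKM in Ptf1a misexpression and at 0 in the GFP-only control, without a test. It lies beside Pnliprp1 and Pnliprp2 on chromosome 19, and the 3 lipase genes shared no 50-base stretch with another gene. Pnliprp2, a related lipase, rose by little, to 1.46 FPKM in Ptf1a misexpression, against 0.775 FPKM in the GFP-only control. Its log2 fold in the authors' deposited table was 0.91 with q = 0.0431. That call was lost with a q from the normal approximation of the deposited test statistic (0.624). Pla2g1b, the pancreatic phospholipase A2, stood at 0.246 FPKM in Ptf1a misexpression and 0.0585 FPKM in the GFP-only control, without a test.

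The promoter windows of Cel, Pnliprp1 and Pnlip are shown because these 3 lipid enzyme genes run from risen genes to one near 0. The marking is the same.
Cel, chr2:28563354-28563653, minus strand: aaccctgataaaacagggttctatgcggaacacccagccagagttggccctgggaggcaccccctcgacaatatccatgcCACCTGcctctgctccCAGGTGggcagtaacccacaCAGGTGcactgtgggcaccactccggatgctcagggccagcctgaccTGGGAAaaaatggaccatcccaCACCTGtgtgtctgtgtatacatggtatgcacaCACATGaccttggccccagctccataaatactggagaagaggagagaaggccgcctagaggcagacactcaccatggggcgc
Pnliprp1, chr19:58728637-58728936, plus strand: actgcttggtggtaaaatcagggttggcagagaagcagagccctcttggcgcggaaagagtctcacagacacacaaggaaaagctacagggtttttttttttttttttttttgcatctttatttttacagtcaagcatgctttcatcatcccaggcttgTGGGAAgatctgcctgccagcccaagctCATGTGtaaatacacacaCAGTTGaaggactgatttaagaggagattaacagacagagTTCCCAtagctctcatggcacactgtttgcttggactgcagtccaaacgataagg
Pnlip, chr19:58670115-58670414, plus strand: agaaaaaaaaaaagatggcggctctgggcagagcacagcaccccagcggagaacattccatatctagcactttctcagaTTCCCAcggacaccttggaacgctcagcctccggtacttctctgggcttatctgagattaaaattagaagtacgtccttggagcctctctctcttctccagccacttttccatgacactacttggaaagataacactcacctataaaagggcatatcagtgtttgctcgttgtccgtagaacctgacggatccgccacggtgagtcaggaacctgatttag
Cel held 5 E-boxes, 4 of them CACCTG on one strand or the other, and a TC-box core 87 bases before the start, 22 bases from the nearest E-box. Pnliprp1 held 2 E-boxes and 2 TC-box cores, which formed pairs 28 and 40 bases apart. Pnlip held a TC-box core 171 bases before the start and 0 E-boxes. The window of Pnliprp2, which rose and is not printed, held 2 E-boxes, 0 TC-box cores and 0 pairs.

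Windows of 28 of the 37 members were searched, with the members on chromosome 18 (Spink3 and Gata6) left out. A pair was an E-box and a TC-box core with first bases at most 40 bases apart and not overlapping. It was present in 9 of the 28 (32.1%), beside 8.72% of all 27025 genes with RefSeq windows. The TC-box core, with or without an E-box near it, was present in 15 of the 28 (53.6%), beside 28.3% of all genes. Any E-box was present in 24 of the 28 (85.7%), beside 75.0% of all genes, and the form CACCTG in 17 (60.7%), beside 22.6%. The form CAGCTG was present in 7 (25.0%), beside 18.3%. Both strands were searched, and CACCTG and CAGCTG are themselves forms of CANNTG. The TC-box core was present in 8 of the 10 risen genes with a window (80.0%) and in 7 of the 18 others (38.9%), and a pair in 4 of the 10 risen genes and 5 of the 18 others (27.8%). The E-box forms ran the other way, with CACCTG in 4 risen genes and 13 others (72.2%), CAGCTG in 2 risen genes (20.0%) and 5 others (27.8%), and any E-box in 8 risen genes (80.0%) and 16 others (88.9%). The 18 others include Cela2a, Try4, Prss3 and Cpb1, which were not called despite a log2 fold over 4 in the authors' deposited table. Among the 12 tested members with a window and such a fold, the TC-box core was present in 8 (66.7%) and a pair in 4 (33.3%). Any E-box was present in 10 of these 12 (83.3%), CACCTG in 7 (58.3%) and CAGCTG in 3 (25.0%). The split by call is thus not a split by size of change. A match says only that these letters are in the window.

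**Figure D3:**
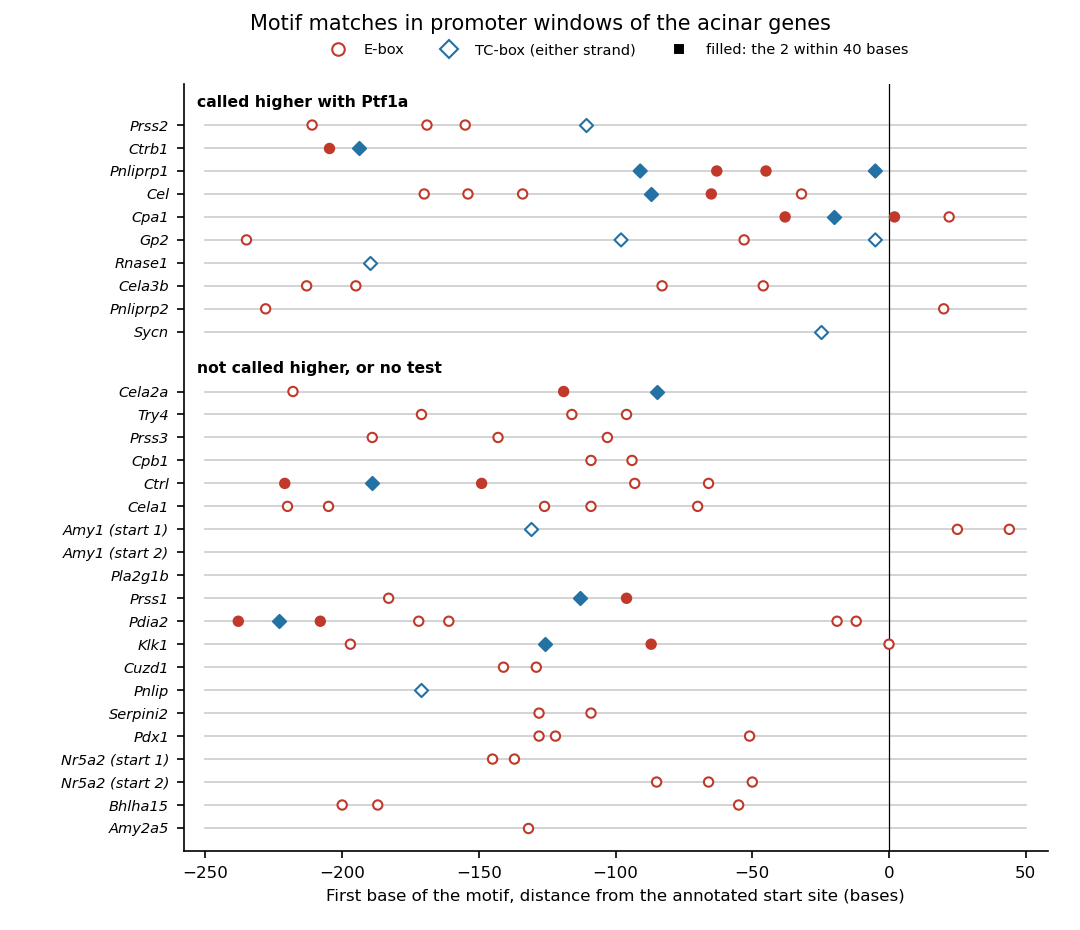
Positions of E-boxes (circles) and TC-box cores (diamonds) in the promoter windows of 28 acinar genes, as distance in bases from the annotated start site, filled where the 2 start within 40 bases of each other. Rows are ordered by level in Ptf1a misexpression within each class, and filled pairs occur both in risen genes (Ctrb1, Pnliprp1, Cel, Cpa1) and in others (Cela2a, Ctrl, Prss1, Pdia2, Klk1).

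Of the amylases and the ribonuclease, 1 of 3 genes rose, 0 fell, 1 was not called and 1 had no test. The share of all tested genes that rose was 18.7%. Rnase1, the secreted pancreatic ribonuclease (chromosome 14, 51764677 to 51766442, mm9), rose to 3.28 FPKM in Ptf1a misexpression and was listed at 0 in the GFP-only control. Amy2a5, a pancreatic amylase gene, was listed at 0 in both groups, and 53.5% of its 50-base stretches also stand in other genes, among them its copies Amy2a2, Amy2a3 and Amy2a4. Its row also overlaps other amylase rows of the table. Amy1, the salivary amylase gene, stood at 0.335 FPKM in Ptf1a misexpression and 0.514 FPKM in the GFP-only control and was not called. Of its 50-base stretches 33.3% also stand in other genes, among them Rnpc3, Amy2b and Amy2a2, so its single values are uncertain too. Amy2b, another pancreatic amylase gene and not one of the 37, stood at 0.123 FPKM in Ptf1a misexpression and 0.0116 FPKM in the GFP-only control, without a test. Amylase is a main product of the acinar cell.

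Granule and secretory proteins rose in 2 of 6 members, and the other 4 had no test, beside 18.7% risen over all tested genes. Both risen members stood under 0.2 FPKM in the GFP-only control and came to a test through their level in Ptf1a misexpression. Gp2 encodes the main glycoprotein of the zymogen granule membrane (chromosome 7, 126586058 to 126602786, mm9). It rose to 3.61 FPKM in Ptf1a misexpression, against 0.0415 FPKM in the GFP-only control, just inside the threshold with q = 0.0461 in the authors' deposited table. Sycn, which encodes syncollin, a protein of the inner granule membrane, rose to 1.34 FPKM in Ptf1a misexpression and was listed at 0 in the GFP-only control. Dmbt1, a secreted scavenger receptor, stood at 0.452 FPKM in Ptf1a misexpression and 0.00470 FPKM in the GFP-only control. Pdia2, the pancreatic protein disulfide isomerase, and Cuzd1 and Zg16, both granule proteins, stood at 0.185, 0.130 and 0.0831 FPKM in Ptf1a misexpression and were listed at 0 in the GFP-only control.

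The 2 inhibitors that guard against early enzyme activation had no test. Spink3, the trypsin inhibitor made beside trypsin in acinar cells, stood at 0.306 FPKM in Ptf1a misexpression and 0.0437 FPKM in the GFP-only control. The precursors of the trypsins it blocks stood up to 23.0 FPKM in Ptf1a misexpression. Serpini2, a pancreatic serpin, stood at 0.0250 FPKM in Ptf1a misexpression and was listed at 0 in the GFP-only control.

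All 5 acinar regulators were under 0.05 FPKM in both groups, and none had a test. Nr5a2, a nuclear receptor that works with PTF1 at acinar enzyme genes, stood at 0.0117 FPKM in Ptf1a misexpression and at 0 in the GFP-only control. Bhlha15, known as Mist1, which organises the secretory apparatus of acinar cells, stood at 0.0101 FPKM in Ptf1a misexpression and 0.00662 FPKM in the GFP-only control. Pdx1, a factor of the early pancreas bud, stood at 0.0183 FPKM in Ptf1a misexpression and at 0 in the GFP-only control, in a row that overlaps that of 2210019I11Rik. The zinc finger factors Gata4 and Gata6, which act in pancreas formation, stood at 0.0189 and 0.0364 FPKM in Ptf1a misexpression and at 0.0210 and 0.0428 FPKM in the GFP-only control. With depth unknown, values this low say only that these transcripts were near the lowest the table lists.

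The 18 untested members stood at 0.452 FPKM or less in both groups. Their value was higher in Ptf1a misexpression for 14, lower for 2 (Gata4 and Gata6) and equal, at 0, for 2 (Ctrc and Amy2a5). Among all untested rows of the table the value was higher in Ptf1a misexpression for 43.5%, lower for 24.0% and equal for 32.5%.

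A large gap did not always come with a call. A log2 fold over 4 in the authors' deposited table, a size chosen after the values were seen, was reached by 14 tested members, beside 106 of all 11876 tested genes (0.893%). These 14 are the members with a control value under 0.2 FPKM, tested through their level in Ptf1a misexpression, so nothing is read from that share. Of the 14 members 9 rose (64.3%), and of the 92 other genes past that size 51 rose (55.4%). The 5 members that were not called were Cela2a, Try4, Try5, Prss3 and Cpb1. Dividing the deposited log2 fold by the deposited test statistic gives an implied standard error, which was 4.76 for Cela2a, 3.26 for Try4, 2.40 for Prss3, 2.23 for Cpb1 and 1.84 for Try5. It was 1.37 for Ctrb1, 1.42 for Cpa1, 1.46 for Prss2, 1.87 for Cel and 1.90 for Gp2, and 0.53 for Pnliprp1. Over these 10 members with a control value above 0 and under 0.2 FPKM its median was 1.88, beside 1.55 for the 56 other tested genes in that control range with at least 1 FPKM in Ptf1a misexpression. Over 7386 other tested genes with 1 to 23.0 FPKM in the higher group its median was 0.392. Merged values do not show whether a single sample carried a gene's level.

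**Figure D4:**
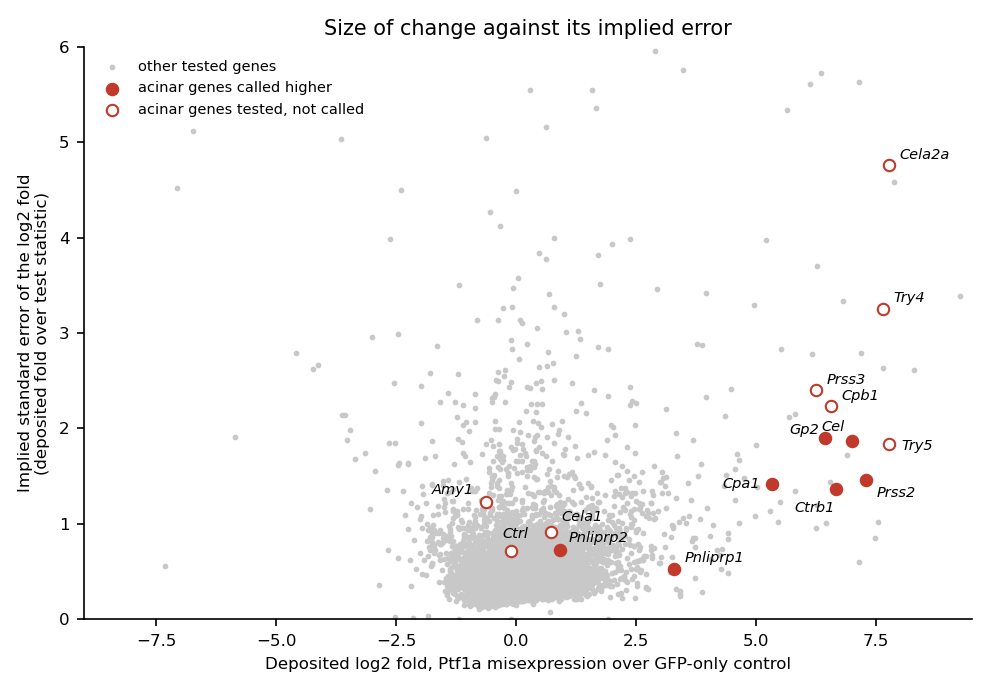
Deposited log2 fold of Ptf1a misexpression over the GFP-only control (horizontal) against its implied standard error (vertical). Shown are the 15 tested acinar genes with a finite fold (red, filled where risen) and the other tested genes (grey, 27 of them above the plotted range). Cela2a and Try4 lie at the upper right, with folds as large as those of Prss2 and Cel and implied errors of 4.76 and 3.26.

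Cela3b, Clps, Rnase1 and Sycn, the tested members listed at 0 in the GFP-only control, have an infinite fold and no test statistic in the authors' deposited table, with q = 0.000329, the lowest it holds. Of all 35 tested genes listed at 0 in the GFP-only control 21 were called, and 18 had the lowest p. An entry of 0 is not always a lack of transcript, since each of the 16 rows marked as having too much data was listed at 0 in at least 1 group. None of the 37 acinar genes carried that mark.

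Other acinar products, from a list of genes that are not among the 37, were read beside them. Of 24 such genes 5 rose, 0 fell (0 lower also at an unadjusted p under 0.05), 6 were not called and 13 had no test. The shares over all tested genes were 18.7% risen and 19.1% fallen. The Reg genes, which encode secreted lectin-like proteins of the acinar cell, rose in 3 of 6 rows. Reg1 rose to 34.7 FPKM in Ptf1a misexpression against 0.455 FPKM in the GFP-only control, and Reg3b to 14.9 FPKM in Ptf1a misexpression against 0.160 FPKM in the GFP-only control. Reg3g rose to 1.19 FPKM in Ptf1a misexpression and was listed at 0 in the GFP-only control. Reg2 stood at 8.30 FPKM in Ptf1a misexpression and 0.0566 FPKM in the GFP-only control and was not called. Tff2, a trefoil peptide, rose to 4.16 FPKM in Ptf1a misexpression and was listed at 0 in the GFP-only control. P2rx1, an ATP-gated channel, stood at 5.63 FPKM in Ptf1a misexpression and 0.00929 FPKM in the GFP-only control and was not called. The water channels Aqp8 and Aqp12 had a value of 0 in each group.

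Of the PTF1 complex, 3 of 5 tested genes rose, beside 18.7% of all tested genes. Ptf1a is among the 3, and since the construct carried it, its rise followed from the design. Rbpjl, the acinar partner, stood at 0.467 FPKM in Ptf1a misexpression and 0.00509 FPKM in the GFP-only control, without a test. Its widely expressed relative Rbpj stood at 4.13 FPKM in Ptf1a misexpression and 3.32 FPKM in the GFP-only control and was not called. Among E proteins Tcf4 rose to 90.8 FPKM in Ptf1a misexpression against 59.2 FPKM in the GFP-only control, and Tcf12 to 7.54 FPKM in Ptf1a misexpression against 4.51 FPKM in the GFP-only control. Tcf3 stood at 6.01 FPKM in Ptf1a misexpression and 5.30 FPKM in the GFP-only control and was not called. With a q from the normal approximation the calls of Tcf4 (0.0875) and Tcf12 (0.188) were lost, which leaves Ptf1a itself.

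Among 19 other pancreatic factors 4 rose, 1 fell, 1 was not called and 13 had no test. The risen genes included Hes1, Sox9 and Neurog3. Hes1 stood at 14.5 FPKM in Ptf1a misexpression and 5.09 FPKM in the GFP-only control. Neurog3, the factor that starts islet cell formation, stood at 0.813 FPKM in Ptf1a misexpression and 0.311 FPKM in the GFP-only control, a call lost with a q from the normal approximation (0.569). Xbp1, which expands the secretory apparatus, fell to 45.0 FPKM in Ptf1a misexpression against 57.6 FPKM in the GFP-only control. Foxa2 and Hnf4a, factors of endoderm, had a value of 0 in each group. A list of 23 genes of the endoplasmic reticulum and protein secretion held 21 tested genes and 2 without a test. Of the 21, 5 rose (Calr, Hspa5, Pdia3, Pdia4 and Sel1l), 2 fell (Sec61b and Xbp1) and 14 were not called. The shares to set beside these counts, over all 11876 tested genes, were 18.7% risen and 19.1% fallen. The 5 rises and the fall of Xbp1 were lost with a q from the normal approximation, which was 0.311 to 0.558 for the risen genes and 0.495 for Xbp1. Examples are the chaperone Hspa5, at 154 FPKM in Ptf1a misexpression and 122 FPKM in the GFP-only control, and Pdia4, at 57.2 FPKM in Ptf1a misexpression and 41.0 FPKM in the GFP-only control.

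Marker lists of other cell types were read beside these values, and their part in the acinar levels was not tested. Over all 11876 tested genes 18.7% rose and 19.1% fell. Of 10 cortical pyramidal markers 9 were tested, 0 rose (1 higher at an unadjusted p under 0.05) and 6 fell (Bcl11b, Fezf2, Neurod2, Neurod6 and Tbr1 among them), with Neurod6 at 1189.7 FPKM in Ptf1a misexpression and 1717 FPKM in the GFP-only control. With a q from the normal approximation the falls of Neurod6 (0.180), Neurod2 (0.526), Bcl11b (0.225) and Fezf2 (0.582) were lost, as were the rises of the duct marker Muc1 (0.258) and the intestinal marker Lgals4 (0.205). Of 8 pancreatic duct markers 4 rose (Car2, Krt19, Muc1 and Spp1) and 0 fell, at an unadjusted p under 0.05 too, summing to 22.3 FPKM in Ptf1a misexpression and 3.91 FPKM in the GFP-only control. Of 8 islet markers Ins2 rose and Gcg fell, summing to 69.0 FPKM in Ptf1a misexpression and 74.2 FPKM in the GFP-only control. Most of both sums was Gcg and Chga, the latter at 40.3 FPKM in Ptf1a misexpression and 46.6 FPKM in the GFP-only control. Ghrl stood at 11.2 FPKM in Ptf1a misexpression and 0.0556 FPKM in the GFP-only control. Ppy stood at 3.996 FPKM in Ptf1a misexpression and 0.164 FPKM in the GFP-only control. Neither Ghrl nor Ppy was called. The value was higher in Ptf1a misexpression for 5 of the 8 and lower for 3. Of 10 epithelial and endodermal markers Krt8 and Krt18 rose, while Foxa2 was at 0 and Epcam stood at 0.302 FPKM in Ptf1a misexpression and 0.107 FPKM in the GFP-only control. The epithelial and endodermal list summed to 15.6 FPKM in Ptf1a misexpression and 1.34 FPKM in the GFP-only control. Stomach markers summed to 12.0 FPKM in Ptf1a misexpression and 0.0384 FPKM in the GFP-only control, nearly all of it Gkn3, which was not called, with Tff1 at 0. Of the intestinal markers Lgals4 rose and Fabp2 was at 0, with sums of 1.46 FPKM in Ptf1a misexpression and 0.170 FPKM in the GFP-only control. Liver markers, of which Ttr fell, summed to 8.75 FPKM in Ptf1a misexpression and 33.7 FPKM in the GFP-only control. Most of both sums was Ttr, at 6.92 FPKM in Ptf1a misexpression and 31.4 FPKM in the GFP-only control. Alb stood at 0.0215 FPKM in Ptf1a misexpression and 0.0341 FPKM in the GFP-only control, without a test. Red blood cell markers, of which 3 of 5 fell, summed to 62.1 FPKM in Ptf1a misexpression and 149 FPKM in the GFP-only control. Microglial markers, of which Tyrobp fell (a call lost with a q from the normal approximation, 0.210), summed to 10.1 FPKM in Ptf1a misexpression and 13.9 FPKM in the GFP-only control. Endothelial markers, with none called by Cuffdiff and 1 higher at an unadjusted p under 0.05, summed to 4.41 FPKM in Ptf1a misexpression and 3.15 FPKM in the GFP-only control.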

How the data were processed

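RNA of 3 Ptf1a misexpression and 2 GFP-only control samples, between 2.1 and 7.8 ng each, was amplified and sequenced as paired 50 bp reads, per the labels' protocols. TopHat2 2.0.8, CASAVA 1.8.2, Cuffdiff and Cufflinks 2.1.1 were used on mm9, per the submitters' processing notes; the Cuffdiff version, annotation and parameters were not given in the sources used here. The deposited FPKM values are 1 per gene and group, the deposited log2 fold is Ptf1a over control, and the test statistic, as deposited, is a signed score, per the file headers. The deposited p-value and q-value come from the authors' test, and the group headed PIG was taken to be Ptf1a misexpression, its counterpart being headed GFP. Depth per sample is unknown, so no interval could be given.

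The deposited q reproduced Benjamini-Hochberg adjustment over tested genes within 5.2e-07, and a q under 0.05 matched the table's mark in 23234 of 23234 rows. Log2 differences used a pseudocount of 0.1 FPKM. The members, roles and gene lists were chosen with earlier results of these data known, and all 37 members are named. Some other genes of the lists are counted but not reported here by name. Of the rows 11194 had no test for few fragments, 148 too little and 16 too much data. Starts were read as counting from 0 and printed from 1, since 7148 of 20595 rows then had the RefSeq length, against 451 otherwise. Promoters (RefSeq, GRCm38.p6) and shared 50-base stretches (GENCODE M21 transcripts, same strand) were matched by symbol. Only for the 50-base stretches was Spink3 matched as Spink1. Members on chromosome 18, Spink3 and Gata6, were left out of the promoter search by rule, and the share of all genes had no such rule. The motif search and the adjustment were tested on simulated data (Python 3.11.15, pandas 2.3.3, scipy 1.17.1).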

Additional observations from a re-analysis of the deposited data

How the results depend on the processing

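The count of acinar genes that rose, 11, beside 18.7% of all tested genes, was 12 at a q under 0.10 (the share of all genes then being 22.2%), 11 among genes of at least 1 FPKM (15.8%) and 10 with a minimum of 2-fold (6.67%). It was 6 at a q under 0.01 (12.9%), 4 among genes of at least 5 FPKM (6.95%), 7 with adjustment over every row of the table (15.9%) and 7 with a p from the normal approximation of the test statistic (3.31%). That last setting gives no value for the 4 genes listed at 0 in the control, adds Try5 and drops Pnliprp2. In settings added after seeing the data, the count was 10 without the trypsin genes and 7 without genes listed at 0 in the control. The count of fallen genes was 0 in each of these settings. The count at or above the level set for detection was 17 in Ptf1a misexpression and 2 in the GFP-only control at 1 FPKM, 18 in Ptf1a misexpression and 5 in the GFP-only control at 0.5 FPKM, and 14 in Ptf1a misexpression and 0 in the GFP-only control at 2 FPKM. The median log2 difference of the 37 genes, 1.50, was 4.05 with a pseudocount of 0.01, 0.32 with a pseudocount of 1, 4.85 over members of at least 1 FPKM and 4.82 over tested members; the last 2 drop the silent members. Of the 11 members that rose, 5 (Cel, Ctrb1, Gp2, Pnliprp2 and Prss2) lost their call at a q under 0.01. Centring on the median of genes of at least 1 FPKM left the median at 1.53 and gave untested Gata4 a log2 difference of 0.01 in place of -0.03; no called gene that was rerun changed sign. No paired analysis was possible because the table holds 1 merged value per group, and for the same reason no sample could be left out. Without depth or values per sample, no limit of detection can be given for the silent members.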
